A study of Mus musculus with 4 samples.

Results

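Expression in G1E cells labelled GATA-1 2RA was compared with expression in the G1E control, using every gene that the authors' deposited table of this comparison lists. The table held 965 genes, out of 2982 genes listed in at least 1 of the 6 pairwise tables of the series. G1E is a mouse erythroblast line that lacks functional GATA-1, and the other groups of the series are G1E cells labelled GATA-1 WT and GATA-1 V205M. All 4 groups carried the label of β-estradiol induction and each is 1 labelled sample, so differences between groups have no replicate check. The labels do not say which change 2RA denotes, how the proteins were introduced, or whether a group is 1 clone. The V205M form of GATA-1 is known to bind the cofactor FOG-1 poorly. Zfpm1, which encodes FOG-1, has no level in the tables used here.

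GATA-1 is a zinc finger transcription factor that binds the DNA word GATA and is needed for red cells, platelets, eosinophils and mast cells to mature. In differentiating erythroblasts it raises globin, heme and membrane genes. It also lowers genes of the proliferating progenitor, among them Kit and Gata2, and FOG-1 takes part in many of these changes. When FOG-1 binding is lost, erythroid precursors are known to keep or gain mast cell genes.

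A level here is a read count that the authors divided by a size factor, so that libraries of different depth can be compared. It is not divided by transcript length, so levels are compared within a gene. The G1E control mean was built from 2 count columns and GATA-1 2RA from 1. The labels do not tell if the columns are separate cultures or repeat runs. The control columns held 1015015 and 276064 reads over the 2466 genes with a control level, listed in this comparison or not. The 2RA column held 1218762 over all genes with a 2RA level, among them 1615 whose level was given with all digits. The control and 2RA totals therefore cover different sets of genes and do not compare depth. Across the 431 genes with 500 or more control reads, the log2 ratio between the control columns had an SD of 0.13 and a median of -0.18. Changes are given as log2((2RA + 1)/(control + 1)), which understates the change of low genes. Fold values are ratios of pooled reads with exact 95% binomial intervals that cover counting error only. The lowest count in every column was 1, and no source says if 1 was added to all counts. If it was, 1 printed read stands for no read, and the ratios given below for genes with 1 to 3 reads in a group are too small.

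Of 12931 genes tested, 965 (7.46%) passed the authors' limits of 0.01 on the adjusted p-value and 2-fold on the change. In 2RA, 628 genes were higher (4.86% of those tested) and 337 were lower (2.61%). Gene list sizes given below count all annotated members, tested or not, so shares of a list have a different base from these shares. The higher genes had a median log2 change of 1.56 and the lower genes of -1.50. Large changes occurred in both directions, with 82 genes over 8-fold higher and 69 over 8-fold lower. The levels at the edge of the listing were Chd2 on the higher side, at 2.00-fold, and Cdv3 on the lower side, at 2.02-fold on the authors' scale. Just outside it lay Gypc, 2.00-fold higher when rounded, and Spn, 1.98-fold lower. The number of higher genes fell under scalings that drew on the listed genes themselves. Only listed genes were recalculated, so the number of lower genes could not rise. Subtracting the median of the 1580 genes with both levels (0.40 on the log2 scale) left 379 higher and 337 lower genes over 2-fold. DESeq2 size factors estimated over the listed genes alone moved the changes by 1.19, to a median of 0.04. This scaling brings the median of the listed genes near 0 by construction, so it cannot test the authors' scaling. It turned the sign of 117 of the higher genes, those with a log2 change below 1.19. On the authors' scale, the 615 genes with both levels that were not listed had a median log2 change of 0.06.

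**Figure D1:**
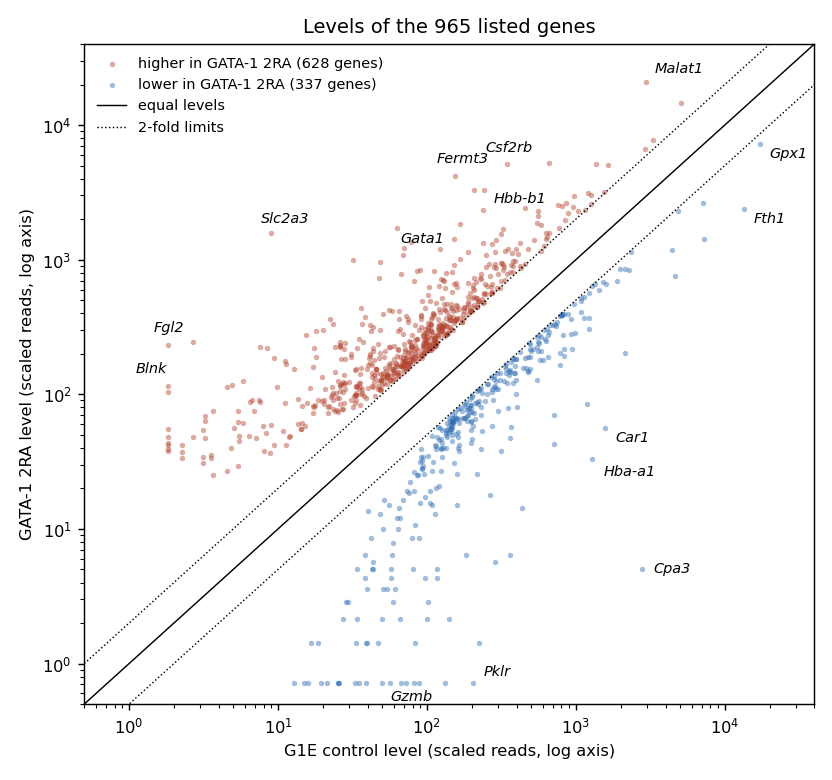
Level of each of the 965 listed genes in the G1E control (x axis) and in GATA-1 2RA (y axis), both as scaled reads on log axes, with 1 point a gene and named examples. The 628 higher genes lie above the diagonal and the 337 lower genes below it, from Slc2a3 at a log2 change of 7.29 to Cpa3 at -8.86.

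The 2RA level lay outside both control columns for 965 of 965 genes, as the listing itself makes likely. Calculated against either control column alone, the change had the same sign for all 965. For the 169 listed genes with 500 or more control reads, the changes against column 1 and column 2 differed by a median of -0.17, and by at most 0.60. The change thus depended little on the column for well covered genes, but 48 listed genes had 3 or fewer reads in a group and their folds have wide intervals. Among the 435 higher genes with a level in all 4 groups, 2RA was the highest group for 194 and GATA-1 WT for 195. For 214 lower genes of this kind, 2RA was the lowest group for 93 and GATA-1 WT for 89. Levels for the other groups are known only where another table lists the gene. The tables hold only genes called as changed, so a gene with no level in any table may still be expressed.

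**Figure D2:**
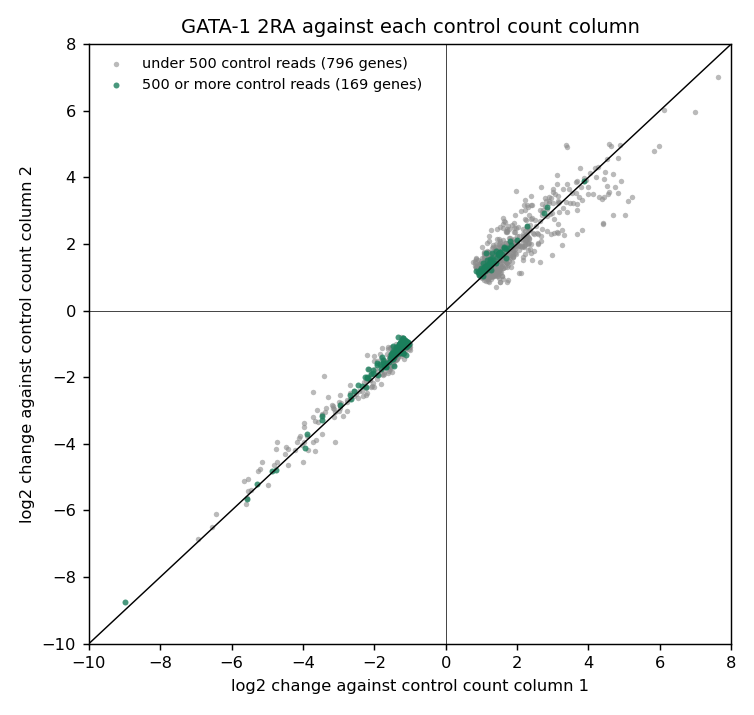
Log2 change of each listed gene calculated against control count column 1 (x axis) and column 2 (y axis), with the 169 genes of 500 or more control reads in green and the 796 others in grey. All 965 points have the same sign on both axes, and the green points lie close to the diagonal, within 0.60.

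Gata1 itself, on chrX:7959260-7978071, was read at 160.2 and 146 in the control columns and at 1421 in 2RA. The increase was 9.07-fold (95% interval 7.92 to 10.4), and the level stood between those of GATA-1 V205M (613) and GATA-1 WT (2652). The gene named by the label was therefore present in the library labelled 2RA at a level above the control. Esr1, which encodes the estrogen receptor, had 1 read in each control column and a level of 43.6 in 2RA. That is a ratio of 33.2 (8.81 to 281) and a log2 change of 3.98, or 4.59 without control column 2, beside 58.6 in GATA-1 WT and 13.3 in V205M. Of 15 genes listed as estrogen-responsive, Ccnd1 was also higher (log2 change 3.75) and Nrip1 was lower (-1.40).

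Gata2 and Kit, progenitor genes that GATA-1 is known to lower, were not among the listed genes. Gata2, which encodes the GATA factor of stem cells and progenitors, was at 818 and 728 in the control columns and 514 in 2RA, a log2 change of -0.59. Its level was 54.8 in GATA-1 WT and 1316 in V205M. Kit, the stem cell factor receptor, was at 2678 and 2179.8 in the control and 2218 in 2RA, a change of -0.13 beside a level of 179 in WT. The 2RA level of Kit lay between the control columns, and that of Gata2 lay below both.

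Globin genes moved in opposite directions. Of 12 globin genes, 4 were listed, with both β-globin genes higher and both α-globin genes lower. Hbb-b1, an adult β-globin gene, was at 261 and 215 in the control columns and at 2342 in 2RA, 9.35-fold higher (8.41 to 10.4). Hba-a1, an adult α-globin gene, was at 1325 and 1256 in the control and at 32.9 in 2RA, 39.8-fold lower (29.7 to 54.6). No control column overlapped 2RA for either gene. GATA-1 WT stood far above both, at 39108 for Hbb-b1 and 12001 for Hba-a1. In V205M both were low, at 91.6 and 38.9. Hbb-b2 was 3.72-fold higher in 2RA (2.76 to 5.07) and Hba-a2 was 7.51-fold lower (4.0 to 15.6). The members of each pair are near-identical copies, so how reads were split within a pair is uncertain. Both members of a pair moved the same way, but with shared reads they could do so anyway, so they are not separate observations.

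**Figure D3:**
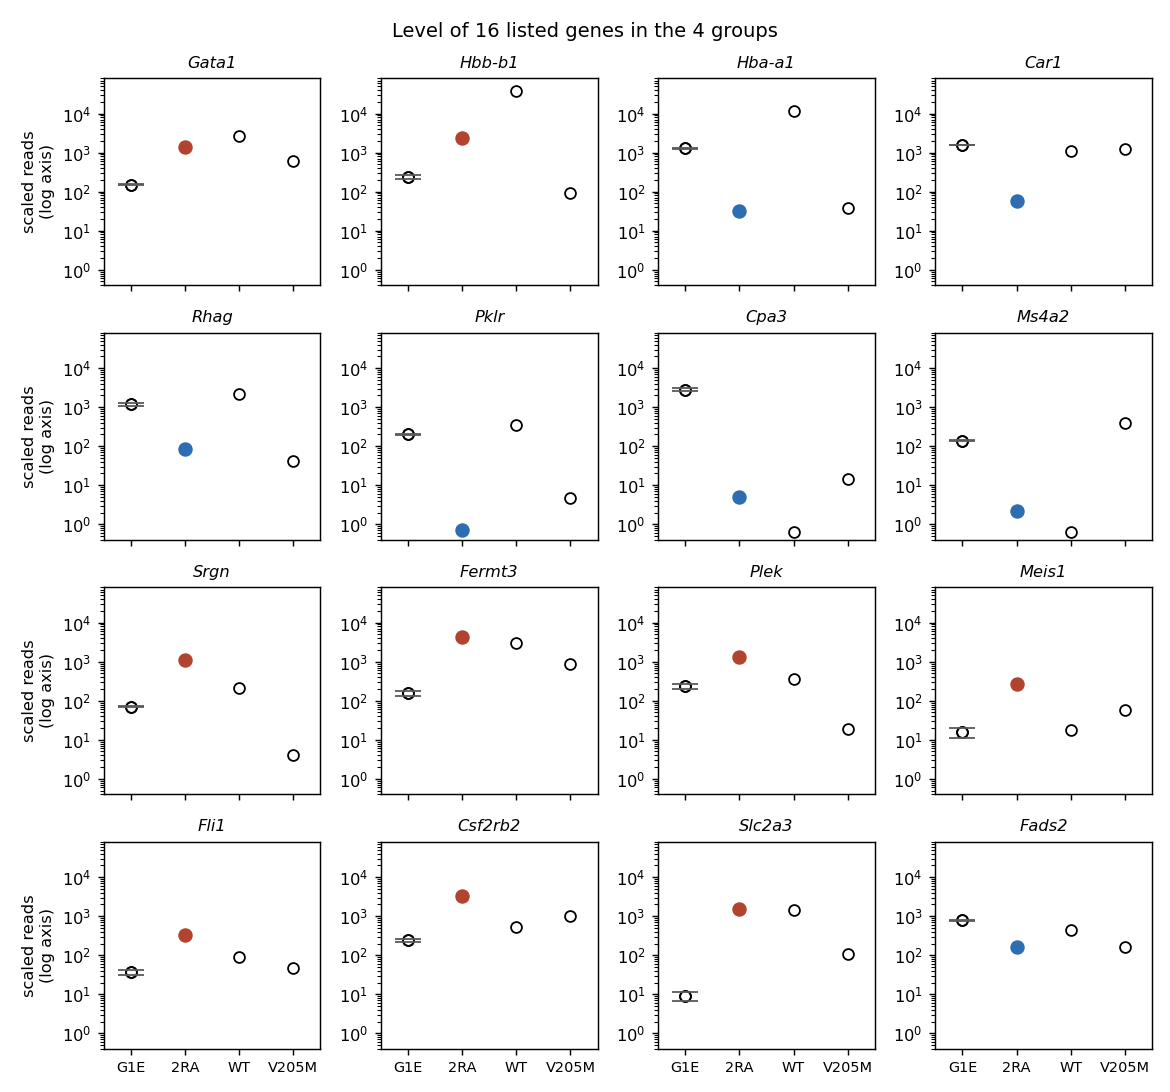
Levels of 16 genes in the 4 groups, as scaled reads on a log axis, with dashes for the 2 control count columns, filled circles for GATA-1 2RA (red where higher and blue where lower than the control) and open circles for the authors' levels of the control, GATA-1 WT and V205M. Hba-a1 lies at 32.9 in 2RA against 12001 in WT, while Slc2a3 lies at 1568 in 2RA and 1440.4 in WT.

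Heme genes were mostly unlisted. Of 24 genes of heme synthesis and transport, 3 (12.5%, beside 7.46% of all genes tested) were listed and each was higher. Abcb10, a mitochondrial transporter needed for heme synthesis, went from 92.5 and 86.7 in the control columns to 844 in 2RA, 9.26-fold higher (7.76 to 11.1). Tmem14c, which helps import heme precursors, had a log2 change of 1.66, and Slc25a38, the mitochondrial glycine carrier, of 1.15, whose sign turned under the DESeq2 scaling. Each of the 3 was higher still in GATA-1 WT, at 3195, 1236 and 816. Alas2, whose product makes the first heme precursor in red cells, was not listed: the control held 12 and 1 reads and 2RA held 3, against a level of 1154 in GATA-1 WT. Fth1, the ferritin heavy chain that stores iron, was among the most abundant control genes, at 14257 and 12726, and was at 2382 in 2RA. That is 5.84-fold lower (5.63 to 6.05), near the GATA-1 WT level of 2890.3. The iron exporter Slc40a1 (-1.61) and the importer Slc11a2 (-1.25) were also lower. Aco1, which in its iron-free form binds iron-responsive mRNAs, was higher by 1.08, but its sign turned under the DESeq2 scaling.

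Red cell membrane genes divided within complexes. Of 33 genes, 5 were higher and 6 were lower. Spnb1, the erythroid β-spectrin, rose from 81.4 and 75.6 to 1349, a log2 change of 4.09, whereas Spna1, its α-spectrin partner, fell from 117 and 134 to 34.3 (-1.85). Adducin genes parted too, with Add3 (1.33) and Add1 (1.15) higher and Add2, the erythroid β-adducin, at 4.29 against 140.5 and 92.3. The sign of Add1 turned under the DESeq2 scaling. Add2 was 30.1-fold lower (13.6 to 83.1), and its GATA-1 WT level was 925. Rhag, the Rh-associated glycoprotein, was at 1258 and 1102 in the control and at 84.3 in 2RA, against 2197 in WT. Slc4a1, the band 3 anion exchanger, was not listed, with 7 and 2 control reads and 2 in 2RA.

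Among 33 genes of late erythroid maturation, 8 were higher and 5 lower. The higher ones included Ube2l6 (4.28), Btg2, an antiproliferative gene (3.78), and Nt5c3, the pyrimidine nucleotidase of red cells, which went from 499 and 417 to 2426. All 3 stood higher in GATA-1 WT than in 2RA, at 1484, 1120.5 and 4660.1. The lower ones included enzymes of the mature red cell. Car1, carbonic anhydrase 1, was at 1546 and 1578 in the control and 56.4 in 2RA, 27.5-fold lower (22.0 to 34.9), although its levels in GATA-1 WT and V205M were 1097 and 1264. Pklr, the pyruvate kinase of red cells and liver, was at 209 and 199 in the control and had 1 read in 2RA. The ratio was 289 (51.5 to 11457), and GATA-1 WT stood at 350.2. Gpx1, which removes hydrogen peroxide, had the highest control level of any listed gene and was 2.45-fold lower in 2RA (2.39 to 2.51).

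Among 35 transcription factors and cofactors of erythroid cells, 7 had higher levels and 2 had lower ones. Apart from Gata1, the heme-binding repressor Bach1 went from 45.4 and 30.8 to 373 (3.26). Lmo2, a bridging protein of the GATA-1 complex, went from 91.7 and 72.8 to 694 (3.06), against 1293 in GATA-1 WT. Mafk, a small Maf partner of NF-E2, was higher by 2.23, but its locus overlaps that of Tmem184a, another higher gene, so reads of the pair may not be separable. Gfi1b, a repressor of erythroid and platelet development, was lower by 1.05 while GATA-1 WT stood above the control at 1568. Trim10, a gene of erythroblast maturation, was lower by 3.17, from 26.6 and 28.0 to 3 reads. Klf1 (-0.28), Nfe2 (-0.68) and Tal1 (-0.91) had levels but were not listed.

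Mast cell genes were among the largest decreases, beside genes outside this list. Of 33 genes, 10 were listed (30.3%, beside 7.46% of all genes tested), and 7 of the 10 were lower. The median log2 change of the 10 was -4.43 beside 1.23 over all listed genes. Another 6 had both levels but were not listed, with a median of 0.02. The summed level of the 10 listed genes was 5826 in the control and 1729.6 in 2RA. Cpa3, the carboxypeptidase of mast cell granules, was at 3029.8 and 2560.3 in the control columns and at 5.0 in 2RA, from 7 reads. It was 584-fold lower (283 to 1453), the largest decrease in the comparison, and stood at 0.63 in GATA-1 WT and 14.6 in V205M. Ms4a2, the β chain of the high-affinity IgE receptor, was at 146 and 134 in the control and had 3 reads in 2RA, a ratio of 66.7 (22.5 to 326). In V205M its level was 383. Rgs13, a mast cell regulator of G protein signalling, and Gzmb, the protease granzyme B, each had 1 read in 2RA against 123 and 130 in the control. Their ratios were 113 (19.9 to 4496) and 119 (21 to 4749). Cyp11a1, a steroid-synthesis enzyme that mast cells also make, had 2 reads, a ratio of 157 (43.3 to 1305). The other lower genes were Ndst2, which sulfates mast cell heparin (-3.37), and Il1rl1, the IL-33 receptor (-1.93).

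A different set of mast cell list genes was higher in 2RA. Srgn, the proteoglycan core of granules in mast cells and other blood cells, went from 72.0 and 67.2 to 1077, 15.2-fold higher (12.5 to 18.7). It was lower in both other groups, at 215 in WT and 4.15 in V205M. Tpsab1, a mast cell tryptase, went from 51.4 and 58.8 to 139 (1.32), and Cited1, a transcriptional coregulator, from 77.1 and 95.1 to 257 (1.57). Both had a GATA-1 WT level of 0.63. Hdc, which makes histamine, was not listed and changed by 0.18. Of 8 defining mast cell markers, 4 were listed, and Fcer1a, Tpsb2 and Cma1 had no level in any table.

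The sequences just upstream of 5 lower genes and 1 higher gene are shown as examples of GATA words upstream of genes described here, and were chosen because they hold such a word. Many of the largest changes do not: of the 15 largest increases, 10 had a promoter sequence and 3 of these held a word (Tsc22d1, Gramd1c and Jun), and of the 15 largest decreases, 12 had one and 6 held a word. They are the 250 bases before the RefSeq start (GRCm38.p6), read 5′ to 3′ on the strand of the gene. Capitals mark 4 words on either strand, namely AGATAA and the same letters ending in G, and TGATAA and the same letters ending in G. The regions are Cpa3 at chr3:20242182-20242431 (minus strand), Ms4a2 at chr19:11623720-11623969 (minus), Rgs13 at chr1:144177373-144177622 (minus), Pklr at chr3:89135892-89136141 (plus), Hba-a1 at chr11:32283422-32283671 (plus) and Csf2rb2, a cytokine receptor gene described further on, at chr15:78305722-78305971 (minus).
Cpa3: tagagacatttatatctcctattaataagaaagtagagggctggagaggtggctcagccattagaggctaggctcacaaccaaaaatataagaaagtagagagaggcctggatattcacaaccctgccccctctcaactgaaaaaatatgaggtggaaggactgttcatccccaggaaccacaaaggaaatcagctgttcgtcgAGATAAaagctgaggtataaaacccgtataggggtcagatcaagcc
Ms4a2: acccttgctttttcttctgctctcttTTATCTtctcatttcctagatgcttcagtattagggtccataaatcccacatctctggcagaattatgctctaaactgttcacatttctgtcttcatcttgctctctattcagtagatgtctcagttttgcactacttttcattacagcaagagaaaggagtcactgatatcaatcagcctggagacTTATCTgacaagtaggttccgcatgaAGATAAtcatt
Rgs13: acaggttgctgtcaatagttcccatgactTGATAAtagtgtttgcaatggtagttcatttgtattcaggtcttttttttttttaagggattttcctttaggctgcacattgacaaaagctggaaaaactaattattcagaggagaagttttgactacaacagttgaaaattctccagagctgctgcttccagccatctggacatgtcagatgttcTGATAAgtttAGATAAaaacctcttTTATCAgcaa
Pklr: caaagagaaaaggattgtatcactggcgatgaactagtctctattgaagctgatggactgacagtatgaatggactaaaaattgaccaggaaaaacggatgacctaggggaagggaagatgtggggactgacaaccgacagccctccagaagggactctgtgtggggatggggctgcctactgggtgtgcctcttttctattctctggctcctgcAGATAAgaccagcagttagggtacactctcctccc
Hba-a1: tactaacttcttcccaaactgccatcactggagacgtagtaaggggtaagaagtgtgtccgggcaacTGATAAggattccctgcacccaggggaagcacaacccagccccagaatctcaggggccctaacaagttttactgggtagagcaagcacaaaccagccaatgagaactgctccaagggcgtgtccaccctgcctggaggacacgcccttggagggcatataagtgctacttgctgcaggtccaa
Csf2rb2: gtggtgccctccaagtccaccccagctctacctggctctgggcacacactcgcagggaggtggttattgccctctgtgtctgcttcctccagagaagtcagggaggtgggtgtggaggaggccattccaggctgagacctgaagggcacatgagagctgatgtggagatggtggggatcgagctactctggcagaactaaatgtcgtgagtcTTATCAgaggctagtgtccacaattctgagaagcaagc

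In Cpa3 the word began 46 bases upstream of the start, in Csf2rb2 38 bases and in Hba-a1 183 bases. In Pklr it began 35 bases upstream of the start shown, and the other RefSeq start of Pklr had no word. Rgs13 held 4 words, 3 of them within 35 bases of the start, and Ms4a2 held 3. The share of genes with such a word was not higher among the listed genes as a whole. At least 1 of the 4 spellings lay upstream of 29.7% of 27025 genes with a promoter sequence, of 26.3% of the 486 higher genes matched (Wilson 95% interval 22.6 to 30.4) and of 22.8% of the 224 lower genes matched (17.8 to 28.7). A match describes the letters and is not evidence of binding.

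Every listed megakaryocyte and platelet gene was higher in 2RA. They numbered 9 of 41 (22.0%, beside 7.46% of all genes tested), with a median log2 change of 2.33. Another 3 had both levels but were not listed, namely Gp5 (1.09), Nbeal2 (-0.25) and Tal1 (-0.91). Fermt3, the kindlin that activates integrins in blood cells, was at 176 and 132 in the control columns and 4204 in 2RA, 25.4-fold higher (22.4 to 29.0), above GATA-1 WT at 3099. Itgb3, the β3 integrin of platelets, went from 6.85 and 8.39 to 87.2 (3.35). Fli1, an ETS factor of megakaryocytes and endothelium, went from 42.0 and 30.8 to 331, against 89.4 in WT and 47.6 in V205M. Plek, the platelet protein kinase C substrate, was at 275 and 199 in the control and 1319 in 2RA, while V205M stood at 18.7. For each of these genes 2RA lay above both control columns and every other group with a level. The ADP receptor P2ry1 (1.90), the ATP channel P2rx1 (1.98), the focal adhesion gene Zyx (2.33) and Gp1ba (1.51), a chain of the von Willebrand factor receptor, were the smaller increases, with Tln1 (1.24). Of the defining markers, Itga2b, Gp1bb, Gp9, Pf4 and Vwf had no level in any table, Plek and Fermt3 were listed, and Gp5 was not listed, with a change of 1.09.

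Of 30 stem and progenitor genes, 4 (13.3%, beside 7.46% of all genes tested) were listed, all higher. Another 6, namely Myb, Kit, Vim, Gata2, Ikzf2 and Lmo4, had both levels but were not listed, and each lay below 0, with a median log2 change of -0.56. Meis1, a homeobox gene of stem cells and megakaryocytes, went from 11.1 and 19.6 to 276, 21.1-fold higher (13.5 to 34.9), against 17.6 in GATA-1 WT. Csf2rb and Csf2rb2 encode the shared β chain of the IL-3, IL-5 and GM-CSF receptors and its mouse IL-3-specific copy. Csf2rb was at 349 and 344 in the control and 5095 in 2RA. Csf2rb2 was at 256 and 224 in the control and 3306 in 2RA, 13.3-fold higher (12 to 14.8), above WT at 538 and V205M at 1015. These genes are close relatives on chromosome 15, and reads shared between them are possible. Homeobox genes of the Hoxc cluster were divided. Hoxc10 had 1 read in each control column and a level of 104 in 2RA, a ratio of 79.5 (21.6 to 663) and a log2 change of 5.22, or 5.83 without control column 2, while Hoxc4 (-2.57), Hoxc5 (-1.70) and Hoxc8 (-1.95) were lower. The annotated locus of Hoxc5 overlaps those of Hoxc10 and Hoxc8, so those assignments are uncertain.

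Among 85 cytokines, chemokines and receptors, 6 were higher and 3 lower, 10.6% in all beside 7.46% of all genes tested. Il4ra, a chain of the IL-4 and IL-13 receptors, went from 29.1 and 36.4 to 151, while both other groups with GATA-1 were under 10. Its ligand gene Il4 was higher by 2.02 and the IL-9 receptor Il9r by 1.72. Il2rg, the common γ chain, had 1 read in 2RA against 35 in the control, a ratio of 32.1 (5.40 to 1305). Tnfsf10, the death ligand TRAIL, had 2 reads against 121, a ratio of 55.5 (15 to 464), and was as low in both other groups. Among 195 annotated genes of G protein signalling, tested or not, 7 were higher and 3 lower, 5.13% in all beside 7.46% of all genes tested. Ednra, the endothelin A receptor, had 1 read in 2RA, a ratio of 111 (19.6 to 4423), whereas its level was 729.6 in V205M.

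Genes of receptor-proximal signalling in blood cells that were listed were nearly all higher. The list of 60 Src, Btk and PI3K pathway genes was drawn up after the values had been seen and is only a description. It had 19 genes higher and 1 lower, and the rest were not listed. Blnk, the adaptor that links Syk to Btk, had 1 read in each control column and stood at 115 in 2RA, a ratio of 87.7 (23.9 to 730.3) and a log2 change of 5.36, or 5.97 without control column 2. The WT level of Blnk was 0.63. Ptprc, the leukocyte phosphatase CD45, went from 0.857 and 5.60 in the control columns, from 1 and 2 reads, to 68.6, a ratio of 34.9 (11.6 to 172). Its log2 change of 4.04 became 5.23 without control column 2 and 3.40 without column 1. Lyn, a Src-family kinase, went from 27.4 and 8.39 to 294 (3.96, or 3.37 without control column 2 and 4.97 without column 1), and Btk, the kinase of the B cell and mast cell pathways, from 98.5 and 112 to 497 (2.23). Inpp5d (1.09) and Jak1 (1.07) turned sign under the DESeq2 scaling. The exception was Ptpn6, the phosphatase SHP-1, lower by 1.37.

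Few markers of other blood and vessel cells were listed. Of 33 neutrophil and macrophage genes, 3 (9.09%, beside 7.46% of all genes tested) were listed, all higher: Fgl2, Itgb2 and Lgmn. Fgl2, a fibrinogen-like protein of myeloid cells, had 1 read in each control column and stood at 233 in 2RA, a ratio of 178 (48.8 to 1472) and a log2 change of 6.37, or 6.98 without control column 2, against 3.15 in WT and 1.43 in V205M. Mpo, Elane, Csf1r, Itgam and Lyz2 had no level in any table, which does not show that they were not expressed. The same held for the lymphocyte markers Cd3e and Cd79a and the endothelial markers Pecam1 and Cdh5. Of 24 lymphocyte genes 1 was listed, Blnk, and of 23 endothelial and stromal genes 1 was listed, Egfl7 (1.93). In bulk RNA a change in the share of cells and a change in RNA per cell cannot be told apart.

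Most listed adhesion and cytoskeleton genes were higher, and most members of both lists were not listed. Of 54 integrin and adhesion genes, 8 were higher, and of 70 genes of the actin cytoskeleton and its regulation 10 were higher, with 2 lower in each list. Itgb2, the β2 integrin of leukocytes, went from 47.1 and 47.6 to 729 (3.92), and Itgb7, which pairs with α4 and αE, from 30.0 and 22.4 to 228 (3.07). Nckap1l, the blood-cell subunit of the WAVE complex that drives actin branching, went from 8.57 and 8.39 to 220.0, 25.8-fold higher (14.9 to 49.0), against 13.9 in WT. Gsn, the actin-severing gelsolin, went from 7.71 and 11.2 to 187 (4.17), and Dock2, an activator of Rac, from 1.71 and 11.2 to 87.9 (3.58, or 5.03 without control column 2 and 2.87 without column 1). For these 5 genes 2RA exceeded every other group. The lower genes were Flna, a cross-linker of actin (-1.23), Myo1g (-2.10) and the galectins Lgals9 (-2.35) and Lgals1. Lgals1 was at 442 and 434 in the control and 14.3 in 2RA, 30.8-fold lower (19.8 to 50.7).

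**Figure D4:**
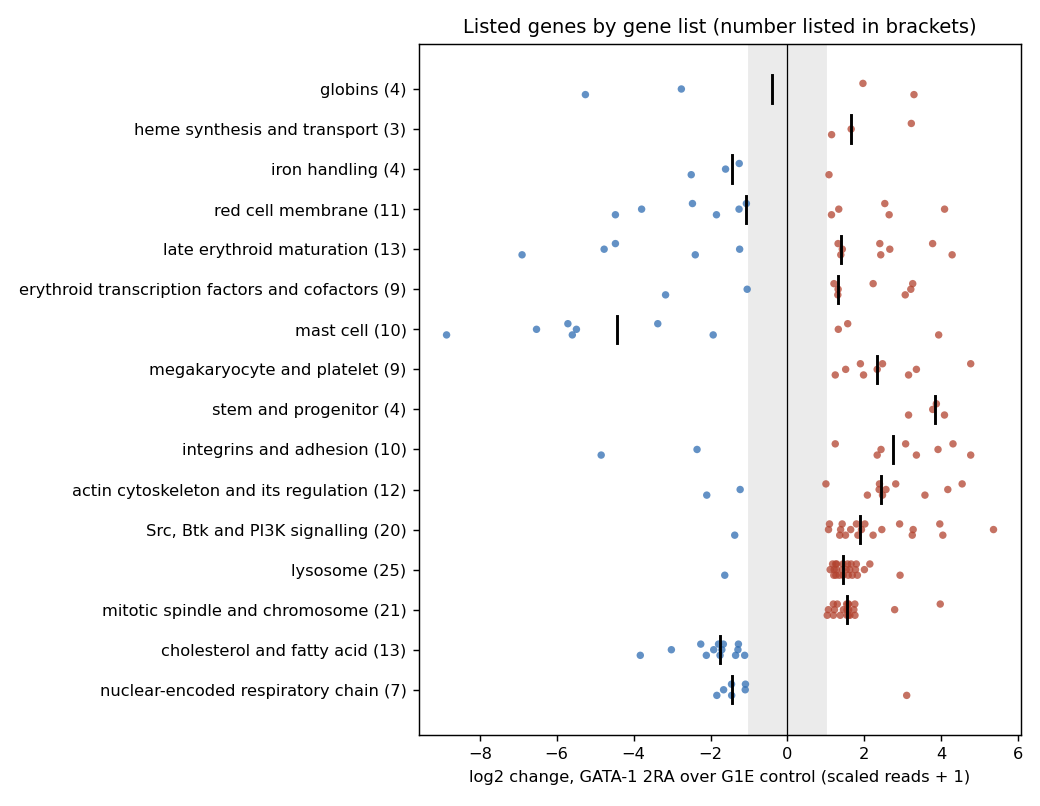
Log2 change, 2RA against control, of the listed members of 16 gene lists (x axis), with 1 point a gene, a black bar at each list's median and a grey band between -1 and 1, inside the 2-fold limit. The listed cholesterol and fatty acid genes all lie below 0 and the listed megakaryocyte and platelet genes all lie above it, while the mast cell list spans -8.86 to 3.93.

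The gene with the largest increase encodes a glucose transporter. Slc2a3, which encodes GLUT3, was at 6.85 and 11.2 in the control columns, from 8 and 4 reads, and at 1568 in 2RA. It was 199-fold higher (114 to 386), close to the GATA-1 WT level of 1440.4 and above V205M at 107. Of 32 genes of glucose uptake and glycolysis, 4 were higher and 2 lower. Hk1, which traps glucose in the cell, went from 370.1 and 274 to 911, and Eno1, enolase, from 1048 and 887 to 2986 (1.62). Eno1 shares its sequence with pseudogenes, so its level is less certain. Pdk1, which restrains pyruvate entry into mitochondria, was lower by 2.49, beside the loss of Pklr given above.

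The listed genes of lipid synthesis moved one way. Of 43 cholesterol and fatty acid genes, 13 (30.2%) were listed and 13 were lower, with a median log2 change of -1.75. Sqle, the squalene epoxidase, was at 1512 and 1363 in the control and 594 in 2RA (-1.27). Dhcr7, which completes cholesterol synthesis, was at 679 and 529 and at 179 (-1.75). The fatty acid desaturases Fads2, Scd2 and Fads1 were lower by 2.25, 2.11 and 1.92. Fads2 had the same rounded level, 164, in 2RA and V205M, against 445 in WT. Soat1, which esterifies cholesterol for storage, showed the largest drop among well covered members, from 278 and 255 to 17.9, 15.3-fold lower (10.2 to 23.9). Fdft1, another member at -1.71, overlaps the locus of Ctsb, which was higher.

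Of 41 genes of growth arrest and apoptosis, 8 were higher and 2 lower. Of 46 cell cycle genes, 4 were higher and 1 lower, 10.9% in all beside 7.46% of all genes tested. Another 11 had both levels but were not listed, with a median log2 change of 0.19. Bcl2, which blocks cell death, had 4 control reads and a level of 75.7 in 2RA, 28.9-fold higher (10.9 to 108). Its log2 change of 4.04 became 4.82 without control column 2 and 3.54 without column 1. Bcl2l1, which encodes Bcl-xL, went from 93.4 and 101 to 438, near the GATA-1 WT level of 411. The cyclin-dependent kinase inhibitors Cdkn1a (1.34) and Cdkn1b (1.08) were also higher, but the sign of Cdkn1b turned under the DESeq2 scaling. Ccnd1, cyclin D1, went from 3.43 and 2.80 to 54.3 (3.75), whereas WT stood at 0.63. Jun, a component of AP-1, went from 6.0 and 5.6 to 126 (4.23).

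Higher and lower genes also had different typical lengths and kinds. The longest annotated transcript had a median of 3687 nucleotides in 621 higher genes, 2852 in 328 lower genes and 2882 in 21924 protein-coding genes. These sets are unlike, because the listed genes include pseudogenes and noncoding genes, and the 21924 were not limited to genes tested. Of the listed genes, 591 higher and 285 lower ones were protein-coding. Processed pseudogenes, copies of mRNAs without introns, made up 38 of the lower and 19 of the higher genes. Malat1, a long nuclear RNA, had the highest 2RA level of any listed gene, at 20883 against 3119 and 2759 in the control columns. Neat1, the scaffold RNA of paraspeckles, went from 280.1 and 297 to 1145. The mitochondrially encoded mt-Rnr1 (-1.90), mt-Nd2 (-1.09) and mt-Nd4 (-1.04) were lower, and so were the 3 listed histone genes, by 1.01 to 1.14. Whether transcript length, or the levels of these nuclear and mitochondrial RNAs, play a part in the other differences was not tested.

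**Figure D5:**
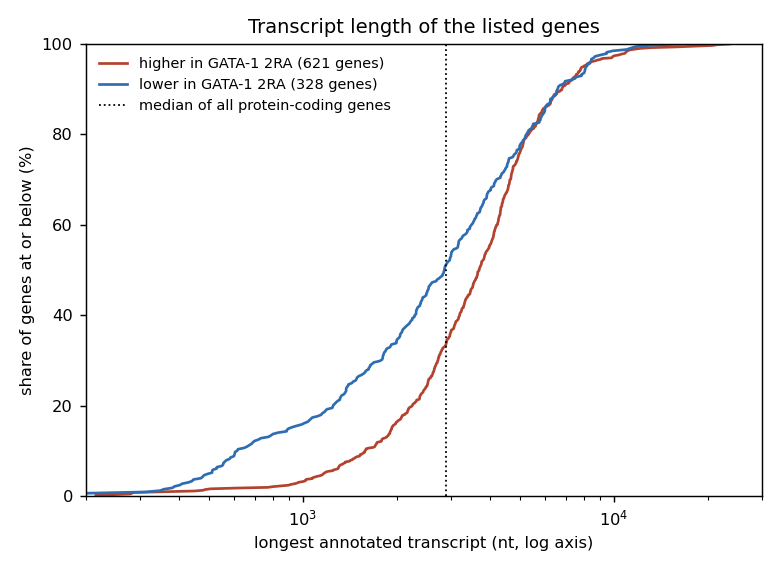
Cumulative share of listed genes (y axis) by length of the longest annotated transcript in nucleotides (log x axis), for the 621 higher and 328 lower genes with a length, with a dotted line at the median of protein-coding genes, 2882. The curve of the higher genes lies to the right, with a median of 3687, and the lower genes have a median of 2852.

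Several large changes fell outside the gene lists. Tsc22d1, a leucine zipper transcriptional regulator, went from 69.4 and 56.0 to 1732 (4.77), against 879 in GATA-1 WT. Plekho2, a pleckstrin homology domain gene, went from 32.6 and 30.8 to 993 (4.93), and Gnb4, a G protein β subunit, from 6.85 and 8.39 to 224 (4.70). On the lower side, Fgf15, a secreted fibroblast growth factor, went from 349 and 372 to 6.43, 55.1-fold lower (28.8 to 121). Thrb, a thyroid hormone receptor, had 1 read in 2RA against 112 in the control, a ratio of 103 (18.1 to 4097). Ston2, an endocytic adaptor, also had 1 read, a ratio of 197 (35.0 to 7831).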

How the data were processed

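Total RNA of 4 G1E samples was sequenced from TruSeq libraries, per the labels' protocols. The submitters' processing notes name the mm10 build, Cuffdiff, Cufflinks, TopHat and deepTools, not saying which made the tables; no version is stated there. The deposited signal is a group's mean read count divided by a size factor, as the values show. The authors divided the 2 means to give the deposited fold, took its logarithm as the deposited log2 value, and adjusted the deposited p-value over 12931 genes. Whole reads were recovered within a tolerance of 1e-09 for every control value and for the 1615 2RA values given with all digits. Other 2RA values, given rounded, were not checked this way. The lowest count is 1, so either 1 was added or genes at 0 were dropped, and no source says which. Changes used a pseudocount of 1. The members and gene lists were chosen with earlier results of these data known, and 7 of 37 lists were added after the values were seen. Named were Gata1, Esr1, Zfpm1, Gata2 and Kit, the 15 largest changes each way, up to 6 genes a list, the 5 highest levels in each group and the genes nearest the 2-fold limit; genes printed beyond these, from the added lists, for a marker or as the other members of a pair, were chosen after their values were seen. Gene positions came from GENCODE M21, and promoters from RefSeq GRCm38.p6, with 949 of 965 symbols matched. With 1 labelled sample a group no test was run between groups. edgeR 4.0.16 and DESeq2 1.42.0 (R 4.3.3) were run on the recovered reads of the listed genes as alternatives only, after being tested on simulated data. The simulation changed a minority of genes, evenly up and down. It therefore did not test their scaling where every fitted gene had changed, as here. Their spread comes from the 2 control columns, which may be runs of 1 sample. Promoter shares have Wilson intervals. Intervals cover counting error only. Some items are not reported here.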

Additional observations from a re-analysis of the deposited data

How the results depend on the processing

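The counts of 628 higher and 337 lower genes became 197 and 113 at a 4-fold limit. With its own TMM scaling over the listed genes, edgeR's quasi-likelihood fit called 281 higher genes, and DESeq2 with its own size factors called 77. With the authors' size factors these fits called 607 and 429. Centring on all genes with both levels left 379 higher genes. The TMM, DESeq2 and centring scalings all draw on the listed genes, most of them higher, so a fall in higher genes was built in. The edgeR exact test with an assumed BCV (biological coefficient of variation) of 0.4 called 84 higher and 57 lower genes, and with 0.2 it called 521 and 290. The other alternatives stayed within 1.5 times of both counts. Against control column 1 or 2 alone, 579 or 613 genes were over 2-fold higher and 337 or 296 lower. Among listed named genes and list medians, none changed direction under the pseudocounts of 0.1 and 10, the centring or the use of 1 control column, and unlisted genes were not recalculated. Under the DESeq2 scaling 117 listed genes changed sign, and the median of the solute carrier list went from 1.18 to -0.01. Only listed genes were refitted, so the count of lower genes could not rise. No paired analysis was possible because each group is 1 sample. Across named genes, 89 recalculated changes moved by more than the counting interval and 741 did not; across lists, 72 medians moved by more than the spread between the control columns and 172 did not. Genes with 3 or fewer reads in a group, 48 in all, have intervals too wide to rank.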

Other observations

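Further gene families were described from lists drawn up after the values were seen, so their counts carry no weight beyond description. Of 80 lysosome genes, 24 were higher in 2RA and 1 was lower, with a median log2 change of 1.45. Laptm5, a lysosomal membrane protein of blood cells, went from 1356 and 1169.6 in the control columns to 3013. Man2b1, a mannosidase, went from 285 and 241 to 930.2, against 126 in GATA-1 WT and 129.8 in V205M, and Tpp1, a peptidase, from 353 and 319 to 1166. The exception among the listed lysosome genes was Cln6 (-1.63). Of 50 genes of the mitotic spindle and chromosomes, 21 were listed and all 21 were higher, with a median of 1.55. Top2a, which untangles chromosomes, went from 827 and 694 to 2567, and Tpx2, which builds the spindle, from 604 and 498 to 1864. Both were higher again in GATA-1 WT, at 4305 and 4068. Under the DESeq2 scaling over listed genes the smallest of these increases, Kif11 (1.07) and Tacc3 (1.04), turned sign.

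Few genes of mitochondrial respiration and of ribosomes were listed, and most of those few were lower. Of 121 annotated nuclear-encoded respiratory chain genes, tested or not, 6 were lower and 1 was higher, 5.79% listed beside 7.46% of all genes tested. Uqcr10, a subunit of complex III, went from 7579 and 6727 to 2617. The higher one was Cox7a1, from 5 control reads to 34.3. Of 111 genes of the mitochondrial ribosome and import, 6 were lower and 1 higher (6.31% listed). Of 413 ribosomal protein genes, pseudogenes and similarly named genes, 6 (1.45%) were listed. They were counted whether or not tested, so this share cannot be set against that of all genes tested. The 6 were lower by 1.02 to 1.30 on the log2 scale, and reads may be split between these genes and their copies. Aminoacyl-tRNA synthetases were higher for 4 of 37 and lower for 1, with Hars at a log2 change of 1.82. Of the 35 interferon genes, 0 were listed.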
